A study of Mus musculus with 3 samples.

Results

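The 9 genes Tyrobp, Fcer1g, Hcst, Fcgr3, Syk, Zap70, Lcp2, Plcg2 and Vav1 carry signals from activating receptors into natural killer (NK) cells. They were listed by symbol, and all 9 have a row among the 25906 genes of the count matrices. Their unique molecular identifiers (UMIs, 1 per captured transcript) were counted in 21113 NK cells of wild-type C57BL/6 female mice, 9 weeks old. The cells were sorted as live NK1.1+ NKp46+ cells from lung and blood, and the tissue of a cell was read from its antibody hashtag (B0304 for lung, B0306 for blood). Mice were naive or had received PyMT cells, a mammary tumor line of the same strain, intravenously 6 h or 14 days earlier, and the labels give 100000 cells per injection. Each of the 3 conditions is 1 library that holds both tissues, and how many animals stand behind a library is not in the labels. The groups held 3676 cells (naive lung), 4367 (naive blood), 4680 (6 h lung), 2746 (6 h blood), 3575 (14 days lung) and 2069 (14 days blood).

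NK cells read many of their activating receptors through small adaptor proteins. Tyrobp (DAP12) and Fcer1g (the Fc receptor gamma chain) carry tyrosine motifs that recruit the kinases Syk and Zap70 once phosphorylated, whereas Hcst (DAP10) signals for NKG2D through phosphoinositide 3-kinase and Vav1. Fcgr3 is the Fc receptor CD16, which pairs with Fcer1g. Downstream, the scaffold Lcp2 (SLP-76) brings together the phospholipase Plcg2, which leads to calcium release, and Vav1, a guanine nucleotide exchange factor. This route leads to degranulation and cytokine release in NK cells.

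Levels are given as CPM, the UMIs of a gene as a part of all gene UMIs summed over a group and scaled to the same total. The sums lay between 16936897 and 35922737 UMIs per group. Brackets and ranges called intervals are exact 95% Poisson limits for a level or exact conditional limits for a ratio, and they cover counting error only. With 1 library per condition there is no replicate check, so no test was made and no p-value is given. A gene was called past 1.5-fold when its ratio reached that size and it had at least 50 CPM in the higher group. 8 of the 9 genes met that level in every comparison of whole groups, and Fcgr3 met it in none of these. In every group, at least 1 UMI of a list of NK genes (Ncr1, Klrb1c, Klrk1, Nkg7, Eomes and Prf1) was found in 99.9% to 100.0% of cells. The list is broader than the sort markers and summed to 5831 to 8724 CPM, so such a count is no measure of purity. Each list of markers of other cells had counts in every group, except the 2 erythroid markers, which had none in naive lung. Some of the markers, such as Itgax, Ighm and Cd3g, were carried by most groups. The 9 myeloid markers summed to 90.8 to 192 CPM, highest in 14 days blood, and Lyz2 among them was at 3.37, 0.600, 26.1, 44.9, 13.5 and 89.3 CPM in naive lung, naive blood, 6 h lung, 6 h blood, 14 days lung and 14 days blood. In 14 days lung the 2 erythroid markers summed to 68.2 CPM, all from 3 cells, against at most 0.272 CPM elsewhere. The B cell markers (56.2 CPM, 35.6 to 50.2 elsewhere), T cell markers (58.1, 31.4 to 55.9 elsewhere) and endothelial markers (84.9, 49.4 to 69.7 elsewhere) were also highest there. In every group but 14 days lung, 2 of the 3 endothelial markers had no count. The 6 markers listed for ILC1, innate lymphoid cells related to NK cells, summed to 152 CPM in naive lung and 82.2 in naive blood. They summed to 139 and 76.2 CPM in lung and blood at 6 h, and to 138 and 117 CPM at 14 days. Their part in ratios of lung over blood was not tested. The median UMIs per cell lay between 5910 and 7524. Between 6 and 16 barcodes were shared by 2 libraries.

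Lcp2 and Vav1 moved together across the groups, so the promoters of both are shown. The lines give the 250 bases upstream of the RefSeq start of each gene (GRCm38.p6), with AGGAAG, the core of ETS sites, or its reverse complement in capitals, and with the T-box letters GGTGTGA, here as their reverse complement, also in capitals.
Lcp2, chr11:34046678-34046927, plus strand: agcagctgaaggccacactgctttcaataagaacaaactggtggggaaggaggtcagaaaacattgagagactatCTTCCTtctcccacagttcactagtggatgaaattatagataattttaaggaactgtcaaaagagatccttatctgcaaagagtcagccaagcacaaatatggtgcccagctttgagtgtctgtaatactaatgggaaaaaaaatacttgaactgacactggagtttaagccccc
Vav1, chr17:57278850-57279099, plus strand: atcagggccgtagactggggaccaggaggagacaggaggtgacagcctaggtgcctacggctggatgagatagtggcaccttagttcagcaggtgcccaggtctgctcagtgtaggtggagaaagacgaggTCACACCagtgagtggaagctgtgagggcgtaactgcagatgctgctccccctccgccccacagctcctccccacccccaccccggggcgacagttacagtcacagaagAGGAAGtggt
The ETS letters were searched on both strands and lie 175 bases (Lcp2) and 10 bases (Vav1) upstream of the start. They occur in 29.5% of the 32851 RefSeq mouse promoter windows of this length, the T-box letters in 3.33% and the RUNX letters TGTGGT, which neither window holds, in 14.0%. The matches did not overlap. A match is a run of letters and not a measured site. Of the 9 genes, 8 had a RefSeq promoter entry. The ETS letters also lie in windows of Fcer1g, Hcst, Fcgr3 and Zap70, and in no window of Syk or Plcg2, so they are not particular to Lcp2 and Vav1.

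The adaptors, apart from Tyrobp at 14 days, differed little between lung and blood. Tyrobp (ENSMUSG00000030579, chr7:30413760-30417585, plus strand, GRCm38) stood at 2310 CPM in naive lung, 2475 in naive blood, 2376 in 6 h lung, 2510 in 6 h blood, 1934 in 14 days lung and 2828 in 14 days blood. The 2 groups at 14 days were the lowest and the highest of the 6, and only 6 h blood and naive blood had overlapping intervals as neighbours in that order. Fcer1g (ENSMUSG00000058715, chr1:171229572-171234365, minus strand) stood at 1917, 1990, 2039, 2153, 2036 and 2198 CPM in the same order of groups. All 6 Fcer1g levels lay within 1.15-fold of each other, naive lung being the lowest and 14 days blood the highest.

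Hcst (ENSMUSG00000064109, chr7:30417712-30419854, minus strand) lies tail to tail with Tyrobp, with 126 bases between them. It stood at 507, 533, 514, 547, 654 and 751 CPM in naive lung, naive blood, 6 h lung, 6 h blood, 14 days lung and 14 days blood. Both groups at 14 days were above the other 4, and the intervals of 14 days lung (644 to 663) and 14 days blood (738 to 765) overlapped with none of them. Nearly every cell had a count of Tyrobp and Fcer1g. In cells thinned to 3000 UMIs, the share with a Tyrobp UMI lay between 97.0% (14 days lung) and 99.6% (naive blood). The share with a Hcst UMI, also after thinning, was 75.4% in naive lung, 76.1% in naive blood, 82.8% in 14 days lung and 86.9% in 14 days blood. Barcodes with at most 100 counts, taken as free RNA, held 2951 to 3860 Tyrobp CPM and 867 to 938 Hcst CPM, and its part in these shares was not tested. No cell type that should lack the genes was sorted as a reference, although some cells carried markers of other cell types.

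**Figure D1:**
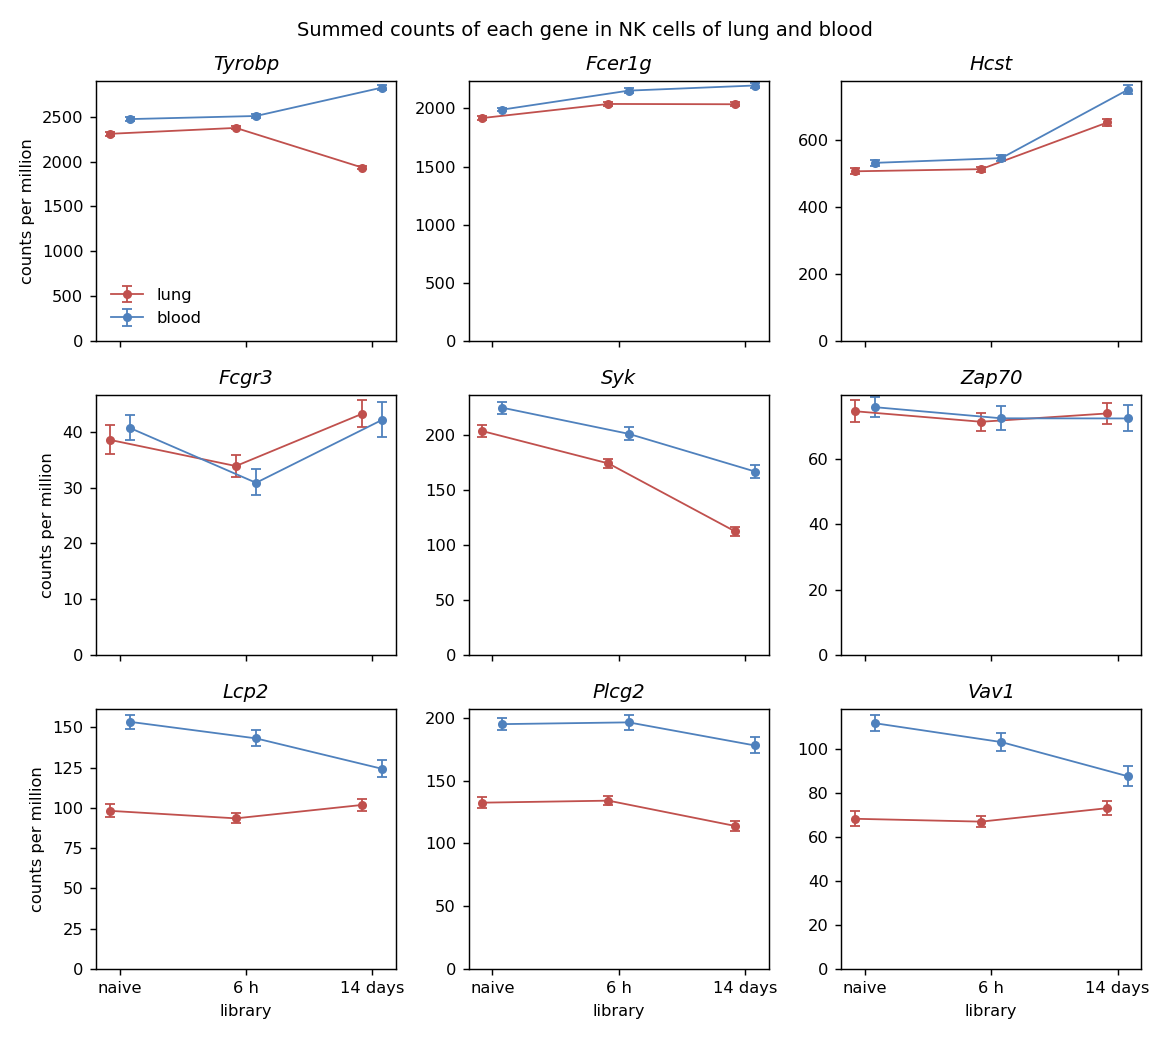
CPM of each of the 9 genes (vertical axis, starting at 0, own scale per panel) in the naive, 6 h and 14 days libraries for lung (red) and blood (blue), with 95% Poisson intervals of counting error as bars. Lcp2, Plcg2 and Vav1 sit lower in lung in all 3 libraries, Syk is lowest in 14 days lung at 113 CPM, and Zap70 stays between 71.5 and 76.0 CPM.

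The Fc receptor and the kinases showed 3 different patterns. Fcgr3 (ENSMUSG00000059498, chr1:171051174-171064935, minus strand) was low, at 38.6, 40.7, 33.9, 30.8, 43.2 and 42.2 CPM in naive lung, naive blood, 6 h lung, 6 h blood, 14 days lung and 14 days blood. Neighbours in the order of its levels had overlapping intervals except naive lung and 6 h lung, and after thinning 8.51% to 12.7% of cells had a UMI. Of its paralogs, Fcgr2b, the inhibitory Fc receptor, had 17.0 to 33.0 CPM and the activating receptor Fcgr4 at most 0.355 CPM. Reads shared between these similar genes could be split or dropped in counting, so the Fcgr3 level is uncertain to that extent.

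Syk (ENSMUSG00000021457, chr13:52583173-52648792, plus strand) had the widest range of the 9 genes. It stood at 204 CPM in naive lung, 225 in naive blood, 174 in 6 h lung, 201 in 6 h blood, 113 in 14 days lung and 167 in 14 days blood, a span of 2.00-fold. Blood was above lung in every library, and in both tissues naive was above 6 h and 6 h above 14 days. The share of thinned cells with a Syk UMI was 41.2% in naive lung (interval 39.6% to 42.8%) and 26.9% in 14 days lung (25.4% to 28.4%). Zap70 (ENSMUSG00000026117, chr1:36761798-36782818, plus strand) was the flattest, at 74.8, 76.0, 71.5, 72.6, 74.1 and 72.6 CPM, and the intervals of its lowest and highest groups overlapped. The barcodes taken as free RNA held 116 to 135 Zap70 CPM, above every group, and the part of free RNA in its flat level was not tested.

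The balance of the 2 kinases therefore differed between groups. There were 0.367 Zap70 UMIs per Syk UMI in naive lung, 0.338 in naive blood, 0.411 in 6 h lung, 0.361 in 6 h blood, 0.659 in 14 days lung (interval 0.623 to 0.696) and 0.435 in 14 days blood. This ratio is compared across groups and says nothing of which kinase is more abundant as protein. Between libraries it sets a longer gene, Syk, against a shorter one, and changes over time moved with gene span, as given below. Within single thinned cells of 14 days lung, 5.23% had UMIs of both kinases, against 5.15% from the product of the 2 shares. In naive blood, where the 2 values lay farthest apart, they were 8.69% and 9.15%.

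The signalling scaffold and its partners were lower in lung. Lcp2 (ENSMUSG00000002699, chr11:34046920-34092295, plus strand) stood at 98.2 CPM in naive lung, 153 in naive blood, 93.5 in 6 h lung, 143 in 6 h blood, 102 in 14 days lung and 124 in 14 days blood. Vav1 (ENSMUSG00000034116, chr17:57279100-57328031, plus strand) followed the same order, at 68.3, 112, 67.0, 103, 73.1 and 87.7 CPM. All 3 lung levels of either gene lay below all 3 blood levels. The Lcp2 to Vav1 ratio of UMIs stayed between 1.37 and 1.44 in the 6 groups. The gene 4930469K13Rik spans Lcp2 on the other strand.

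Plcg2 (ENSMUSG00000034330, chr8:117498291-117635142, plus strand) stood at 133, 195, 134, 197, 114 and 178 CPM in naive lung, naive blood, 6 h lung, 6 h blood, 14 days lung and 14 days blood. Again the 3 lung levels lay below the 3 blood levels. Its paralog Plcg1, the other phospholipase C gamma, had 1.27 to 2.78 CPM. The share of thinned cells with a Plcg2 UMI was 30.1% in naive lung and 41.3% in naive blood, 30.1% and 41.6% at 6 h, and 26.2% and 38.2% at 14 days.

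To ask whether lung NK cells carry this machinery at other levels than blood NK cells, the tissues were compared inside each library. In the naive library, 0 of the 9 genes were past 1.5-fold higher in lung (background 7.67% of 4067 genes) and 2 were past it lower (background 2.21%). These were Vav1, with a log2 ratio of lung over blood of -0.71 (interval -0.80 to -0.62), and Lcp2, with -0.64 (-0.72 to -0.57). Plcg2 was just short at -0.56 (-0.62 to -0.50). The ratios of Tyrobp, Fcer1g, Hcst, Fcgr3, Syk and Zap70 lay between -0.14 and -0.02, near the median of all genes at -0.07.

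The 6 h library gave nearly the same picture, and it holds other cells. Vav1 had a log2 ratio of -0.62 and Lcp2 of -0.62, both past 1.5-fold lower (2 of 9, background 1.8% of 3948 genes, and 0 of 9 higher, background 7.19%), and Plcg2 had -0.55. At 14 days the pattern was different. Plcg2 at -0.64 (-0.72 to -0.57) was the 1 gene past 1.5-fold lower (background 3.4% of 3711 genes) and none was higher (background 6.06%). Syk had -0.57 (-0.64 to -0.50) and Tyrobp -0.55 (-0.57 to -0.53), while Lcp2 had -0.29 and Vav1 -0.26. These calls sit near the threshold: centred on the median of all genes, Vav1 at -0.64 was the 1 gene still past 1.5-fold lower in the naive library (background 1.52%), and none was at 6 h (background 1.19%) or 14 days (background 2.26%).

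**Figure D2:**
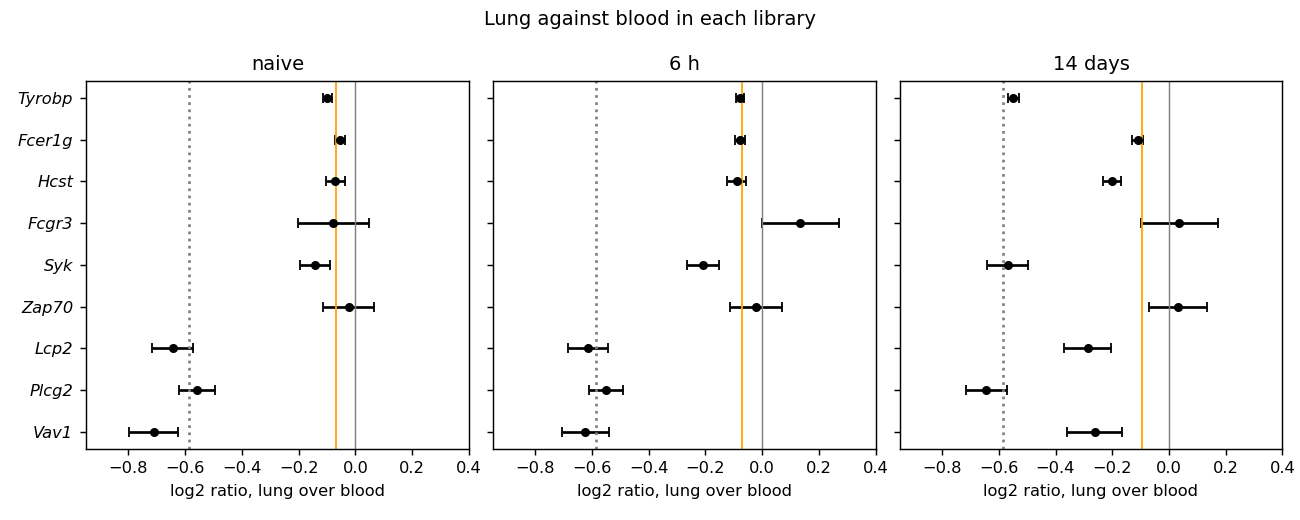
Log2 ratio of lung over blood (horizontal axis) for each gene in the naive, 6 h and 14 days libraries, with 95% conditional intervals of counting error as bars. The dotted line is 1.5-fold lower and the orange line the median of all genes. Lcp2 and Vav1 lie past or at the dotted line in the naive and 6 h libraries, and Plcg2, Syk and Tyrobp lie near it at 14 days.

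In the naive and 6 h libraries, the lower Lcp2, Vav1 and Plcg2 of lung were also seen inside ranges of cells set by marker counts. Cells were split on thinned counts of Cd27 and Itgam, which mark less and more mature NK cells, of Klrg1 and Cx3cr1, and of Pmepa1 and Itga1, giving 7 ranges per group. These comparisons inside ranges were chosen after the values of the whole groups were seen. In naive cells the log2 ratio of lung over blood over the 7 ranges ran from -0.96 to -0.50 for Lcp2, from -0.93 to -0.62 for Vav1 and from -0.67 to -0.40 for Plcg2. At 6 h it ran from -0.81 to -0.38, from -0.78 to -0.42 and from -0.69 to -0.53. Every one of these values was below 0. The ranges overlap, since each split used the same cells. The range with neither Pmepa1 nor Itga1 held 91.9% of thinned naive lung cells and 95.8% of thinned naive blood cells. Its values therefore largely restate those of the whole groups. Lcp2, Vav1 and Plcg2 were picked for their ratios over the same cells, so the shared sign is no independent check. At 14 days Vav1 had 76.2 CPM in lung and 79.8 in blood in cells with Pmepa1 or Itga1. In cells with neither it had 71.4 and 88.3 CPM, and in cells with Cd27 and no Itgam 67.9 and 74.2 CPM. Plcg2 and Lcp2 were lower in lung in these ranges too. In the same order of ranges, Plcg2 had 85.2, 130 and 88.1 CPM in lung and 188, 178 and 155 in blood. Lcp2 had 104, 100 and 112 CPM in lung and 146, 122 and 140 in blood.

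A list of stress genes moved with tissue too. Per the paper's methods, lungs were digested with collagenase and no digestion is described for blood. Tissue and processing therefore cannot be told apart in ratios of lung over blood. The 7 genes Fos, Jun, Junb, Atf3, Hspa1a, Hspa1b and Dnajb1 summed to 1317, 1338 and 1335 CPM in lung and to 309, 320 and 294 CPM in blood, in the naive, 6 h and 14 days libraries. Without cells that had a count of Hspa1a, Hspa1b or Atf3, the naive log2 ratio was -0.65 for Lcp2, -0.72 for Vav1 and -0.57 for Plcg2. Junb and Fos counts remain in those cells, and their part in the result was not tested.

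Between naive and 6 h, no gene of the 9 was past 1.5-fold in lung (0 of 9, background 0.231% of 3889 genes either way) or in blood (0 of 9, background 0.153% of 3910 genes either way). The values of the 6 h over naive log2 ratio in lung ran from -0.23 for Syk to 0.09 for Fcer1g. In blood they ran from -0.40 for Fcgr3, which had fewer than 50 CPM, to 0.11 for Fcer1g. Syk at -0.16 in blood had an interval of -0.22 to -0.11. Relative to the median of genes of like span, taken up after the 14 days values, Syk was at -0.07 in lung and -0.03 in blood. Levels in the 2 libraries were thus close, and each gap is the gap of 2 libraries.

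As measured, the largest change among the 9 genes at 14 days was that of Syk in lung, whereas relative to the median of all genes it was that of Hcst. The Syk log2 ratio over naive was -0.86 (interval -0.92 to -0.79), the 1 gene of 9 past 1.5-fold lower (background 13.4% of 3939 genes), and no gene was past it higher (background 4.47%). Many genes were lower at 14 days, since the median of all genes was -0.25, and relative to it Syk was at -0.60. On that centred scale 8.58% of genes were past 1.5-fold higher and 4.32% lower, with Hcst among the former and Syk among the latter. Hcst was at 0.37 (0.33 to 0.40) as measured and 0.62 relative to the median, Tyrobp at -0.26 and 0.00, and Fcer1g at 0.09 and 0.34. Lcp2 at 0.05 and Vav1 at 0.10 were close to 0 as measured and at 0.31 and 0.35 relative to the median. B cell, T cell and endothelial markers were also highest in 14 days lung, and so were erythroid markers, which came from 3 cells. Without cells that held a myeloid, B cell, T cell, platelet, basophil or mast cell marker, 1537 of 3575 cells were left. Syk was then at -0.63 and Tyrobp at -0.14. Erythroid, endothelial, epithelial and ILC1 markers were not used in that step. A shorter list of markers hardly found in NK cells, with Hbb-bs, Hba-a1, Cdh5 and Cldn5 among them, left 3485 cells. With it Syk was at -0.84 and Tyrobp at -0.25.

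In blood at 14 days no gene of the 9 was past 1.5-fold in either direction (background 3.02% lower and 0.564% higher of 3902 genes). Hcst had the highest log2 ratio over naive, 0.50 (0.46 to 0.53), and Syk the lowest, -0.43 (-0.49 to -0.37). Tyrobp was at 0.19, Vav1 at -0.35 and Lcp2 at -0.31. The median of all genes was -0.20, and relative to it Hcst was at 0.70 and Syk at -0.23. Centred in this way, Hcst was the 1 gene of 9 past 1.5-fold higher (background 2.74%) and none was lower (background 0.308%). So Hcst was the highest and Syk the lowest of the 9 in both tissues, both as measured and after centring on the median gene, but not against genes of like span. The comparisons of lung and of blood share no cells, but each pair shares its libraries.

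**Figure D3:**
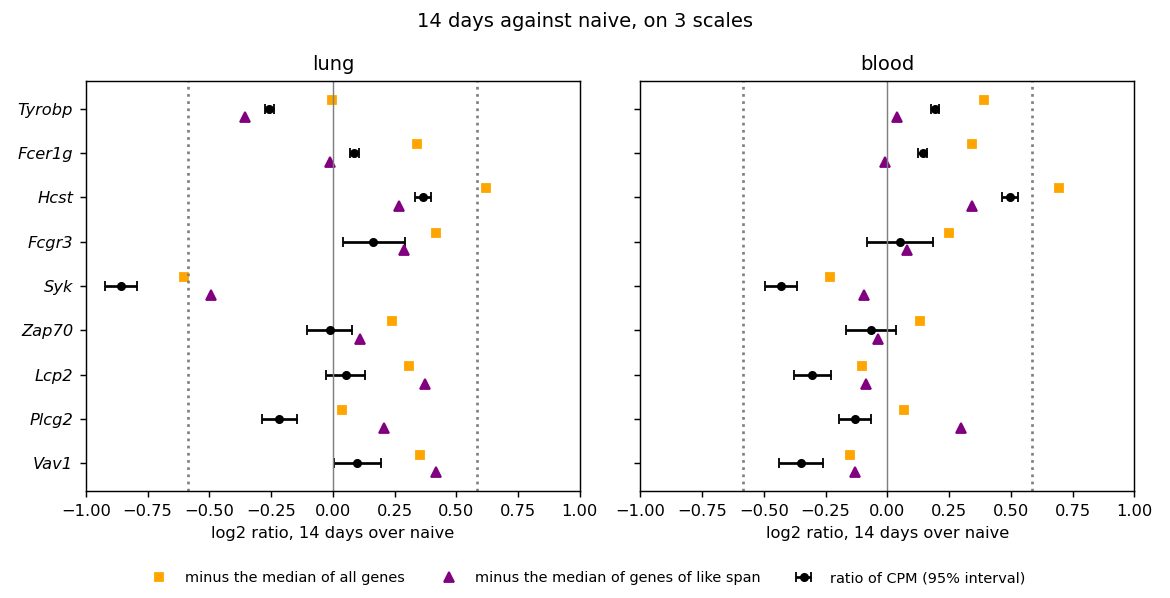
Log2 ratio of 14 days over naive (horizontal axis) for each gene in lung and blood, as the ratio of CPM with its 95% interval (black circles), minus the median of all genes (orange squares) and minus the median of genes of like span (purple triangles). Dotted lines are 1.5-fold. Hcst lies right of 0 on all 3 scales in both tissues, and Syk left of 0 on all 3.

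Gene span moved with the changes over time and bears on these ratios. All genes with at least 50 CPM were put in 5 bins of equal size by their span in GENCODE M21, which was done after the data were seen. The median log2 ratios in lung were 0.10, -0.12, -0.32, -0.37 and -0.42 from the bin of the shortest genes to that of the longest. In blood they were 0.15, -0.03, -0.22, -0.34 and -0.43. The 6 h over naive medians went the same way, from 0.12 to -0.18 in lung and from 0.12 to -0.17 in blood. Lung over blood inside the 14 days library gave -0.12, -0.12, -0.10, -0.09 and -0.04. Tyrobp (3.83 kb), Fcer1g (4.79 kb) and Hcst (2.14 kb) are in the bin of shortest genes, Syk (65.6 kb) in the fourth and Plcg2 (137 kb) in that of the longest. Relative to genes of its own bin, Syk was at -0.49 in lung, no longer past 1.5-fold, and -0.09 in blood, Tyrobp at -0.35 and 0.04, and Hcst at 0.27 and 0.34. Vav1 at 0.42, Lcp2 at 0.37 and Fcgr3 at 0.29 were then above Hcst in lung, and Vav1 at -0.13 was below Syk in blood. On that scale Plcg2 was at 0.21 in lung and 0.30 in blood, against -0.22 and -0.13 as measured. What makes ratios follow span was not tested.

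**Figure D4:**
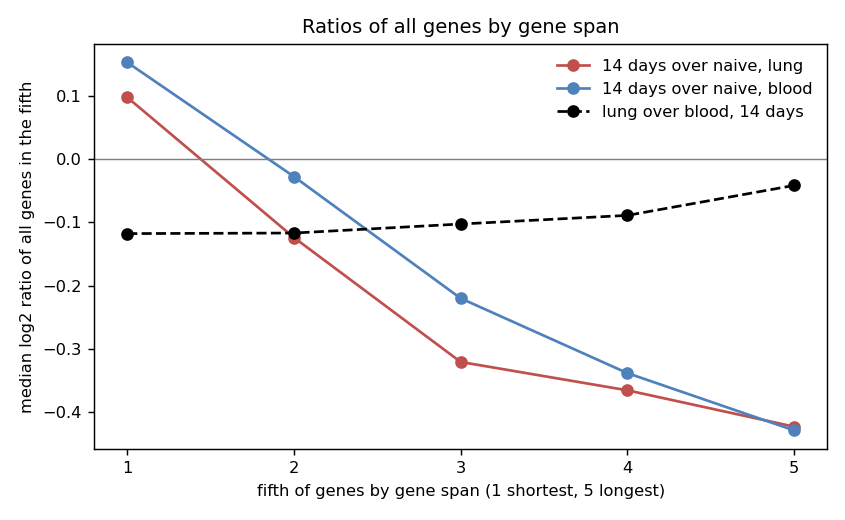
Median log2 ratio (vertical axis) of all genes in each bin by gene span, from shortest (1) to longest (5), for 14 days over naive in lung (red) and blood (blue) and for lung over blood at 14 days (black, dashed). The median goes from 0.10 to -0.42 in lung and from 0.15 to -0.43 in blood, while the dashed line stays between -0.12 and -0.04.

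In 14 days lung, Tyrobp, Syk and Plcg2 were lower in cells with Pmepa1 or Itga1, and they differed on the other splits too. Cells with a thinned UMI of Pmepa1, a target of TGF-beta signalling, or of Itga1, the integrin CD49a, made up 35.1% of 14 days lung cells, against 8.13% in naive lung and 6.79% in 14 days blood. Inside 14 days lung, these 1240 cells had 1483 Tyrobp CPM against 2193 in the other 2297 cells, a log2 ratio of -0.56 (interval -0.59 to -0.54). Syk had 82.9 against 130 CPM, a log2 ratio of -0.65, and Plcg2 85.2 against 130 CPM, a log2 ratio of -0.61. Syk and Plcg2 were the 2 of 9 genes past 1.5-fold lower (background 3.5% of 3595 genes) and none was past it higher (background 3.2%). Fcer1g differed little, with 1975 against 2069 CPM. In naive lung the same split gave log2 ratios of -0.01 for Tyrobp, -0.15 for Syk and -0.21 for Plcg2. In 14 days lung, cells with Klrg1 and Cx3cr1 over the rest gave 0.59 for Tyrobp, 0.68 for Syk and 0.47 for Plcg2. Cells with Itgam and no Cd27 over cells with Cd27 and no Itgam gave 0.47, 0.98 and 0.59. The ranges of these splits overlap.

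Outside the Pmepa1 or Itga1 range, the 14 days over naive log2 ratio in lung was -0.07 for Tyrobp (interval -0.09 to -0.06), -0.67 for Syk and -0.04 for Plcg2. Inside it, Tyrobp was at -0.63, Syk at -1.16 and Plcg2 at -0.44. So, as measured, Tyrobp outside the range was within 0.1 of naive on the log2 scale, and Syk was lower in both. These values are not centred. Over whole groups, the median of all genes was -0.25 and that of the bin of shortest genes, which holds Tyrobp, 0.10. On all UMIs, 48.5% of 14 days lung cells had Pmepa1 or Itga1, so some cells outside the thinned range carry them too. Tyrobp counts were also the most spread in 14 days lung: the variance over the mean of thinned counts was 2.49, against 1.71 in naive lung and 2.03 in 14 days blood, and 3.00% of cells had no Tyrobp UMI where a Poisson count of that mean leaves 0.225%. The summed NK markers of 14 days lung were lower as well, at 5831 CPM against 7299 to 8724 CPM in the other groups. Their part in the lower Tyrobp was not tested.

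Plcg2 and Fcer1g went with maturation marker counts in every group. Thinned cells with a UMI of neither Cd27 nor Itgam are in neither range compared here. They made up 32% (naive blood) to 51% (14 days lung) of a group. In cells with Itgam and no Cd27 UMI, the log2 ratio over cells with Cd27 and no Itgam UMI was 0.55, 0.59, 0.74, 0.70, 0.59 and 0.27 for Plcg2 in naive lung, naive blood, 6 h lung, 6 h blood, 14 days lung and 14 days blood. For Fcer1g it was 0.32, 0.31, 0.37, 0.38, 0.30 and 0.26. Syk was higher in the same cells of 14 days lung, at 0.98 (interval 0.77 to 1.19), with 144 CPM in 1256 cells against 73.1 CPM in 333 cells, and at 0.06 to 0.35 in the other 5 groups. Cells with both Klrg1 and Cx3cr1, late maturation markers, likewise had more Plcg2 than the rest of their group, with log2 ratios from 0.23 to 0.54. Lcp2 ran from -0.19 to -0.01 between the Itgam and Cd27 ranges and Zap70 from -0.29 to 0.11. Hcst ran from -0.12 to 0.09 in 5 groups, but in 14 days lung it was at 0.21 (0.13 to 0.28), and at 0.32 (0.24 to 0.40) in cells with Klrg1 and Cx3cr1 over the rest. Gates of Cxcr6 and Tmem176b held under 50 cells in every group and are not described.

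**Figure D5:**
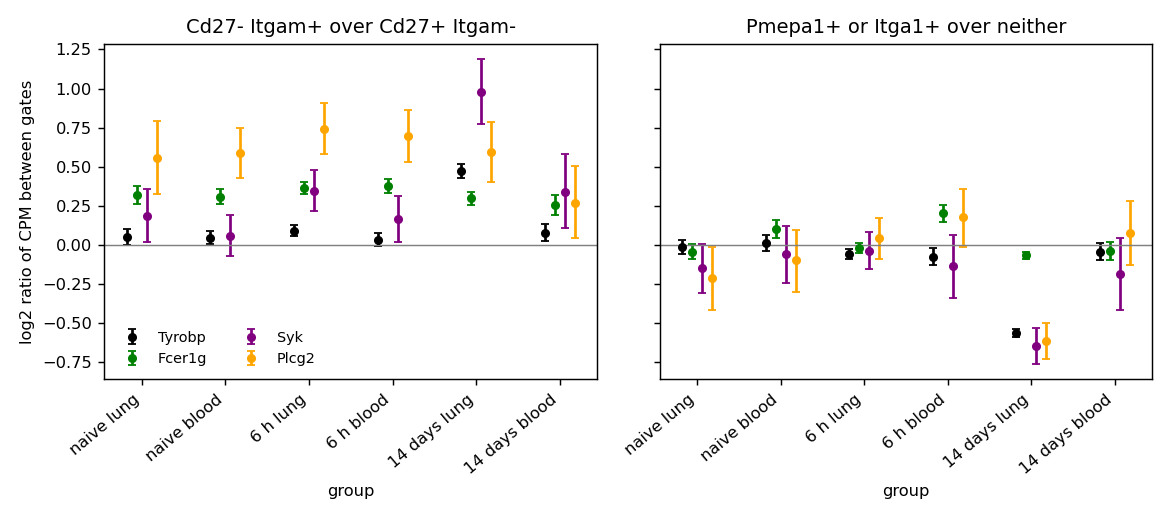
Log2 ratio of CPM (vertical axis) between cells with Itgam and no Cd27 and cells with Cd27 and no Itgam (left), and between cells with Pmepa1 or Itga1 and cells with neither (right), in the 6 groups, for Tyrobp, Fcer1g, Syk and Plcg2 with 95% conditional intervals. Plcg2 and Fcer1g lie above 0 in all 6 groups on the left, and on the right Tyrobp, Syk and Plcg2 lie near -0.6 in 14 days lung and within 0.25 of 0 in the other groups.

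Genes whose level followed a member across the 6 groups were looked up among 4207 genes, by the distance between centred log2 CPM profiles. The nearest to Lcp2 was Vav1, at a distance of 0.05, and the next was Klrk1, which encodes the receptor NKG2D and had 946, 1523, 900, 1397, 985 and 1304 CPM in naive lung, naive blood, 6 h lung, 6 h blood, 14 days lung and 14 days blood. Nearest to Tyrobp were Gemin7 and S100a13, to Hcst Ptpn18 and Ssbp4, to Syk Gsap and Smad3, and to Plcg2 Unc13d and 4930453N24Rik. The second nearest to Vav1 was Zfp654. A likeness over 6 groups of 3 libraries is a description only. Fcer1g, Fcgr3 and Zap70 spanned too little for a search.

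Partners of the 9 genes were looked at whatever their value. Cd247, the CD3 zeta chain that serves with Fcer1g as adaptor of NKp46, stood at 354, 428, 335, 394, 221 and 331 CPM in naive lung, naive blood, 6 h lung, 6 h blood, 14 days lung and 14 days blood. It was lowest in 14 days lung, where its log2 ratio over naive was -0.68, beside a median of -0.25 over all genes. The number of Cd247 UMIs per Fcer1g UMI was 0.109 there against 0.151 to 0.215 elsewhere. Fcer1g is in the bin of shortest genes, and the part of gene span in this ratio was not tested. Fcer1g over Tyrobp was 1.05 in 14 days lung and 0.777 to 0.858 in the other groups. The adaptor Lat2 stood at 132 to 162 CPM and Lat at 32.7 to 49.9 CPM. Grap2 (Gads), which links Lcp2 to Lat, had 154 to 239 CPM, lowest in 14 days lung. Vav3 had 111 to 160 CPM and Vav2 5.32 to 8.77 CPM, while Blnk, the B cell relative of Lcp2, had at most 0.167 CPM.

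A list of 79 further genes of the route (adaptors, kinases, inhibitors and effectors) set these values in context. Between 62 and 63 of them had at least 50 CPM. In lung over blood, 10 were past 1.5-fold higher and 3 lower in the naive and also in the 6 h library, and 7 higher and 2 lower at 14 days. Over all genes, the shares were 7.67% higher and 2.21% lower (naive), 7.19% and 1.8% (6 h), and 6.06% and 3.4% (14 days). Orai1, the calcium channel opened after phospholipase C gamma acts, had 160 CPM in naive lung and 56.7 in naive blood. Lyn, a Src family kinase, had 494 and 223 CPM. Lower in naive lung were Rasgrp1 (57.4 against 98.9 CPM), an activator of Ras, Pik3cd (176 against 285 CPM), the phosphoinositide 3-kinase delta subunit, and Dgkz (64.3 against 102 CPM), a diacylglycerol kinase. At 6 h Orai1 had a log2 ratio of 1.35 and Malt1 of 1.20, with Dgka at -0.74, Rasgrp1 at -0.72 and Pik3cd at -0.59. At 14 days Malt1 had 1.37 and Ptpn22 0.93, with Dok2 at -0.79 and Dgka at -0.78.

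Over time the same list had 0 genes past 1.5-fold at 6 h in either tissue. At 14 days 12 of 62 were lower and 0 higher in lung, beside 13.4% and 4.47% of all genes, with Pag1 at a log2 ratio of -1.07 and Pik3r1 at -1.07. In blood 1 was lower, Malt1 at -0.60, and 0 higher, beside 3.02% and 0.564% of all genes. The median log2 ratio over the list at 14 days was -0.33 in lung and -0.30 in blood, beside -0.25 and -0.20 over all genes, and that over the 8 of 9 genes with 50 CPM was 0.02 and -0.10.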

How the data were processed

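Per the labels and file headers, the authors made 10x 3′ libraries (kit v3.1), aligned them to GRCm38.p6 with GENCODE M23 in Cell Ranger (v7.0.1 in the labels, 7.1.0 in the file headers) and deposited raw gene and hashtag UMI counts for every barcode. Whether intronic reads were counted is not given in the sources used here. Here barcodes with 800 to 5000 genes and at most 6% mitochondrial counts were kept and assigned to a tissue where 1 hashtag held at least 90% of hashtag counts. This left out 342 of 8385 (naive), 158 of 7584 (6 h) and 141 of 5785 (14 days) barcodes. Mixed-hashtag barcodes hold doublets between tissues, while doublets within a tissue remain, as no caller was run. Counts were summed per group (Python 3.11.15, numpy 2.4.6, scipy 1.17.1). Gene positions are from GENCODE M21, promoters from RefSeq. Ratio intervals were tried on simulated Poisson counts only. These share the assumption of the intervals, so spread between cells or mice was not part of that trial. Members, gene lists and marker lists were chosen with earlier results of these data known. Named genes are the 9 members, 10 partners, up to 3 genes per direction of the pathway list in each comparison, and the 2 nearest profiles of members spanning at least 0.5 on the log2 scale. Some results that this rule names are not reported here. Alternatives covered filters, hashtag limits, scaling (TMM from edgeR 4.0.16), thinning, free RNA and left-out cells.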

Additional observations from a re-analysis of the deposited data

Results flagged for a closer look

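2 genes differed from naive at 14 days in opposite directions in lung and blood, with both counting intervals off 0. The difference between the tissues was not tested, since each time has 1 library. Tyrobp had a log2 ratio of 14 days over naive of -0.26 in lung and 0.19 in blood, so that lung minus blood was -0.45. After centring on the median gene, Tyrobp was at 0.00 in lung and 0.39 in blood. Vav1 had a log2 ratio of 0.10 in lung (interval 0.00 to 0.19) and -0.35 in blood, so that lung minus blood was 0.45. After the same centring Vav1 was at 0.35 in lung and -0.15 in blood.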

How the results depend on the processing

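No paired analysis was possible between times because each condition is 1 library, with no replicate to pair or to leave out. Lung and blood share each library and were compared inside it, and a fit over the 3 libraries with the library as a block was not run. Of 133 counts of genes past 1.5-fold recomputed under 19 alternatives, 103 were within 1.5 times the reported count and 30 were not. No gene reported past 1.5-fold changed direction under any alternative, and the cause of the changes below was not tested. Counts hold both directions. In lung over blood, naive, the count of 2 became 1 with a hashtag share of at least 99%, 5 with free RNA subtracted by marker lists (3 lower, 2 higher), 1 with the median of ratios and 0 at 2-fold. In lung over blood, 6 h, the count of 2 became 1 with 1200 to 4000 genes and at most 4% mitochondrial counts, 0 with TMM, 1 as a mean over cells, 5 with free RNA subtracted by marker lists (3 lower, 2 higher), 0 without cells with markers of other cell types, 0 with the median of ratios, 0 centred by gene span and 0 at 2-fold. In lung over blood, 14 days, the count of 1 became 3 with a hashtag share of at least 99%, 0 without mitochondrial and ribosomal genes in the total, 0 with TMM, 2 with free RNA subtracted by marker lists, 2 without cells with a count of Hspa1a, Hspa1b or Atf3, 0 with the median of ratios, 3 at the lower fold tried and 0 at 2-fold. In 14 days over naive, lung, the count of 1 became 4 with free RNA subtracted by marker lists (Syk lower at -1.23 and 3 higher, with Tyrobp at 0.88 against -0.26 as reported), 2 with the median of ratios and 2 at the lower fold tried (each 1 lower, 1 higher), 0 centred by gene span and 0 at 2-fold. In blood, the 6 h count of 0 became 1 with free RNA subtracted by marker lists, and the 14 days count of 0 became 1 with TMM, 8 with free RNA subtracted by marker lists (4 lower, 4 higher), 1 with the median of ratios and 3 at the lower fold tried. The share of free RNA that the marker lists allow was 1.73% to 67.6%. The myeloid list set it in naive lung (49.0%), 6 h lung (55.1%) and 14 days lung (29.9%). The T cell list set it in naive blood (59.2%) and 6 h blood (67.6%), and the erythroid list in 14 days blood (1.73%). The myeloid and T cell lists hold Itgax and Cd3g, which most groups carry, and the part of such genes in these shares was not tested. With the single marker that allows least (1.73% to 12.1%), added after seeing the data like the centring by span and a stricter list of left-out markers, every count was as reported. Gates on all UMIs of a cell gave 122 of 162 ratios within the reported counting interval, with 3 calls at 1.5-fold gained, 4 lost and 0 of opposite direction. Among those gained, Tyrobp in the Pmepa1 or Itga1 range of 14 days lung went from -0.56 to -0.69, so 3 of the 9 genes were past 1.5-fold lower there. Depth limits Fcgr3 most, with 681 to 1220 UMIs per group.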
